A study of Mus musculus with 4 samples.

Results

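The genes described here are 10 members of the unfolded protein and amino acid stress response, *Hspa5*, *Ddit3*, *Atf4*, *Xbp1*, *Herpud1*, *Dnajb9*, *Trib3*, *Asns*, *Chac1* and *Sesn2*, among 36161 gene names on the array. They were taken by name from the array annotation, which gives 12 probes for them, 2 each for *Atf4* and *Dnajb9* and 1 for each of the other genes. Expression in the liver of microsomic (M) mice and their controls (C) was read on single-colour Agilent arrays. There are 4 arrays, 1 per group, from females (MF, microsomic, and CF, control) and from males (MM, microsomic, and CM, control). Microsomic mice are pups born small for their colony, and the question was which genes differ in their liver from that of normal-sized mice of the same gender. The labels give whole liver of C57BL/6J mice at embryonic day 20 for all 4 groups, whereas the paper describes newborns of C57BL/6 N. No group carried an engineered allele or received an agent, and the paper speaks of replicate experiments in each group, whereas 1 array per group is analysed here. Whether an array holds RNA of one animal or of a pool is not given in the sources used here. On the slide, M and C lay in different columns and the genders in different rows, so that position and group cannot be told apart.

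When unfolded proteins gather in the endoplasmic reticulum (ER), the sensors Atf6, Ern1 and Eif2ak3 start the unfolded protein response, which raises chaperones and the degradation of misfolded proteins. Eif2ak3, and Eif2ak4 when amino acids run short, phosphorylate the translation factor eIF2, which lowers most protein synthesis but favours translation of *Atf4*, a transcription factor that switches on genes of amino acid synthesis and transport. The liver secretes large amounts of plasma proteins, and its hepatocytes hold much ER.

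The proximal promoters show which sites of these routes the members carry. The sequences are those of RefSeq on GRCm38.p6, where all 10 members had an entry, and a window from 250 bases before to 50 after the gene start was searched on both strands in 32851 promoters. The ER stress element, CCAAT and CCACG with 9 bases between them, was found in 39 promoters (0.119%), and *Hspa5*, which encodes the main ER chaperone BiP, was the member that held it. The shorter element, ATTGG and CCACG with 1 base between them, was found in 12 promoters (0.0365%), among them that of *Herpud1*, an ER membrane protein of the degradation route. The core TGATGNAA of sites bound by Atf4 with a C/EBP partner was found in 1304 promoters (3.97%) and in 4 of the 10 members, *Asns*, *Chac1*, *Herpud1* and *Trib3*. The core TGACGTGG, bound by Xbp1 and Atf6, was found in 222 promoters (0.676%) and in the window of none of the members. The 250 bases before the start are shown for 4 members with a site, and a window of 28 bases for *Trib3*, whose site lies 15 to 22 bases after the start, with the matched letters in capitals.
Hspa5, chr2:34771840-34772089, plus strand: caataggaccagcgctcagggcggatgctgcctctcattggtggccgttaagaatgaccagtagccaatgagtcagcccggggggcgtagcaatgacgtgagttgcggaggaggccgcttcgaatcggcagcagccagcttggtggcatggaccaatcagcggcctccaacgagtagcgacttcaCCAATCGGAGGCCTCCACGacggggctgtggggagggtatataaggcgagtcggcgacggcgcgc
Herpud1, chr8:94386179-94386428, plus strand: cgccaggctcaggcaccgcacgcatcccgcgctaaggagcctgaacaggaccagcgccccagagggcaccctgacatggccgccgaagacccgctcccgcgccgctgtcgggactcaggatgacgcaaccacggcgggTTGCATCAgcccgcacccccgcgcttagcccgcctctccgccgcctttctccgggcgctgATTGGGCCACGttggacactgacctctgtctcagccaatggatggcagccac
Asns, chr6:7693210-7693459, minus strand: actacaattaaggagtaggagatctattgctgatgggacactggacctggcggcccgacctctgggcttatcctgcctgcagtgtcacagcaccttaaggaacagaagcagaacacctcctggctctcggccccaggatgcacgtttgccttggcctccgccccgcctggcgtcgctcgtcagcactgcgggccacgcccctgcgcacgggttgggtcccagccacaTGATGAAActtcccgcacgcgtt
Chac1, chr2:119350992-119351241, plus strand: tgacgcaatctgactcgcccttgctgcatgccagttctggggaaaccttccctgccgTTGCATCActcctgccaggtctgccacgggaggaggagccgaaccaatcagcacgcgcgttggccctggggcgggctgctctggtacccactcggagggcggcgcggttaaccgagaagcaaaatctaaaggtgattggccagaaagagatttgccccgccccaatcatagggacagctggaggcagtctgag
Trib3, chr2:152344029-152344056, minus strand: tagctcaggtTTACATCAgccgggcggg

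The sites lay close to the start in *Hspa5* (bases -65 to -47), *Herpud1* (-52 to -42 for the shorter ER stress element and -112 to -105 for the Atf4 core) and *Asns* (-23 to -16), and farther out in *Chac1* (-193 to -186). A match describes these letters only, and binding was not measured in these samples.

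Each level is a log2 processed signal relative to the 75th percentile of its array, which lies at 0. Levels compare one probe between arrays and not one gene with another. All 12 member probes were well above background on all 4 arrays and none was saturated. No group has a replicate array, so a difference between a pair of arrays has no error and no p-value. As a yardstick, probes spotted in 10 copies varied within an array by a median SD that gives a difference of MF and CF an SD of 0.35 and one of MM and CM an SD of 0.33 on the log2 scale, which covers the spots of an array and not the animals. The 75th percentile of the signal was 893 on MF, 676 on CF, 925 on MM and 628 on CM, and the share well above background among 59305 non-control spots lay between 56.1% and 65.3%. All 10 hepatocyte markers were well above background on all 4 arrays. Genes of other organs were also found. The summed level of 8 intestinal markers was 75.9 on MF, 7.61 on CF, 32.0 on MM and 6.77 on CM, and that of 8 heart markers was 125 on CF and between 2.44 and 5.44 on the others.

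Of the folding genes among the members, *Hspa5* was nearly level between M and C and *Dnajb9* was low on MF at its brighter probe. *Hspa5* had a log2 level of 6.91 on MF, 6.56 on CF, 6.27 on MM and 6.27 on CM. The MF array was the highest, by 0.35 over CF, and the males were equal to within 0.01. The female difference was about as large as the SD between spots. *Dnajb9*, a co-chaperone of BiP in the ER lumen, had a log2 level of 1.02 on MF, 1.65 on CF, 2.14 on MM and 1.97 on CM at its brighter probe. MF was thus the lowest array, 1.55-fold below CF (log2 difference -0.63), while MM lay 0.17 above CM. The dimmer *Dnajb9* probe read -1.68 on MF, -1.28 on CF, 0.62 on MM and -1.47 on CM. Here MM stood apart from the other 3 arrays, 4.23-fold above CM, and the probes of the gene therefore disagreed on the size of the male difference (0.17 and 2.08). The brighter probe starts at base 1376 of the transcript and the dimmer one at base 417.

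The degradation gene *Herpud1* gave the largest member difference in males on the representative probes. Its log2 level was 5.30 on MF, 5.47 on CF, 6.06 on MM and 4.88 on CM. MM was the highest of the 4 arrays and CM the lowest, a 2.26-fold difference (log2 1.17), and MF lay 0.17 below CF. The software divides each spot by a local detrending ratio, which was 0.770 for this spot on MM and 1.25 on CM. With that division undone the male difference was 0.45 and the female one 0.70. The part of the slide position in this result was not tested beyond this value.

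The transcription factor *Xbp1*, which Ern1 activates by splicing, had a log2 level of 4.59 on MF, 4.26 on CF, 5.94 on MM and 5.34 on CM. Both M arrays were above the C array of their gender, by 0.33 in females and by 0.59 in males, a fold of 1.51 that just passes the limit of 1.5. Its probe does not tell the spliced from the unspliced form. *Atf4* had a log2 level of 6.47 on MF, 6.27 on CF, 5.39 on MM and 5.30 on CM at its brighter probe. The females lay above the males, and M lay above C by 0.20 in females and 0.09 in males. Its dimmer probe read 3.24, 2.89, 2.59 and 3.44 on the same arrays in that order, so that CM was the highest there and MM lay 0.85 below it. *Ddit3*, which encodes the transcription factor CHOP linked to cell death under lasting ER stress, had a log2 level of 0.46 on MF, 0.65 on CF, -0.20 on MM and 0.30 on CM. M was below C in both genders, by 0.18 in females and by 0.50 in males, neither past 1.5-fold. This direction turned in males with normexp (0.23), with the detrending undone (0.25) and without scaling (0.062), and in females without scaling (0.22).

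The probe sequences show what was read. Those of *Ddit3* and of the dimmer *Atf4* and *Dnajb9* probes are given whole, in mm9 coordinates, with no letters in capitals. The annotated span of the *Ddit3* probe is longer than its own 60 bases.
Ddit3, chr10:126732518-126732821, plus strand: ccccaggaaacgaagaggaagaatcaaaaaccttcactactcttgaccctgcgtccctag
Atf4, dimmer probe, chr15:80086639-80086698, plus strand: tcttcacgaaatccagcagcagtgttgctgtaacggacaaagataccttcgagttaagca
Dnajb9, dimmer probe, chr12:45308272-45308331, minus strand: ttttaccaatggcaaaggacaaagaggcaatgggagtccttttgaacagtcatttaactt

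The probes of 4 members, with the brighter one of *Atf4*, hold the polyadenylation signal AATAAA, which 10.1% of all probes hold. These are shown as 30 bases around it, with the signal in capitals, since such probes read the 3′ end of the transcript.
Hspa5: accataagtgacaccAATAAAtgtttgtta
Atf4, brighter probe: tgctgtgtttgctgtAATAAAttattttgt
Trib3: catcatgtgcccAATAAAagagagctgtgt
Asns: ggcatgaaaagaAATAAAagtttcacatct

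Among the targets of Atf4, *Trib3* and *Asns* differed in opposite directions in males. *Trib3*, a pseudokinase that Atf4 and CHOP induce, had a log2 level of 2.32 on MF, 2.74 on CF, 2.13 on MM and 1.01 on CM. CM was the low array, 2.17-fold below MM (log2 difference 1.12), and MF was 0.42 below CF. *Asns*, the asparagine synthetase, had a log2 level of 5.01 on MF, 5.20 on CF, 5.18 on MM and 5.81 on CM. CM was here the high array, 1.55-fold above MM (log2 difference of MM to CM -0.63), and MF was 0.19 below CF. *Trib3* and *Asns* thus differed past 1.5-fold in opposite directions in males. The promoters of both hold the Atf4 core, but its part in these differences was not tested. The male *Asns* difference fell short of 1.5-fold with centring on the median (-0.39), with normexp (-0.53), with the detrending undone (-0.47) and without scaling (-0.07).

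*Chac1*, which degrades glutathione and is induced by Atf4, had a log2 level of -1.23 on MF, -0.79 on CF, -2.59 on MM and -2.72 on CM. The females were above the males on both pairs of arrays, and M differed from C by -0.44 in females and 0.13 in males. *Sesn2*, a leucine sensor that holds back mTORC1, has a single probe, at chr4:132048858-132048917 on mm9. Its log2 level was 4.60 on MF, 2.92 on CF, 0.53 on MM and 1.08 on CM. MF stood 3.21-fold above CF, but the spot carried the non-uniformity flag of the software on MF, so that *Sesn2* was left out of the main counts.

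**Figure D1:**
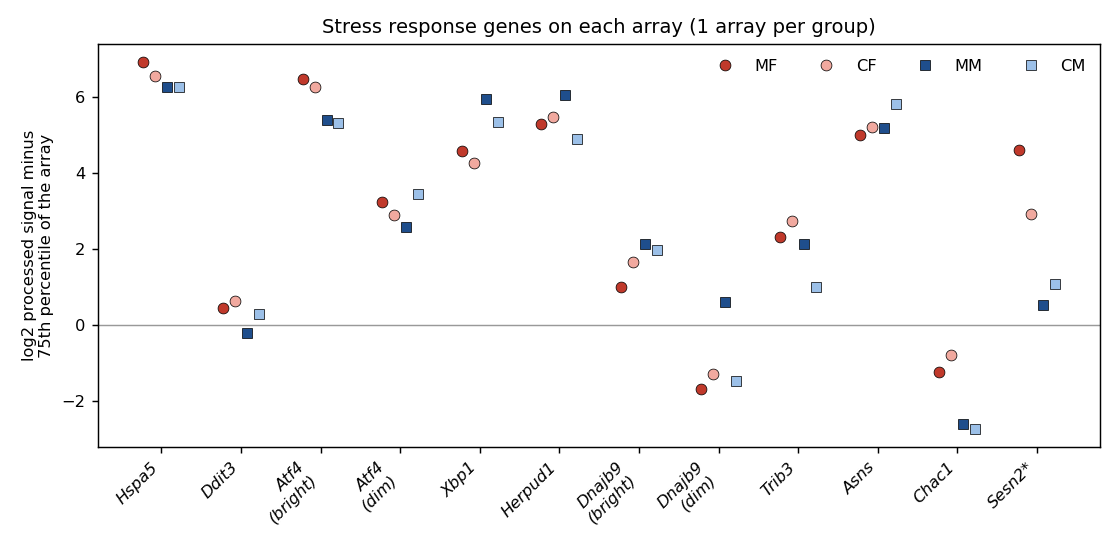
Log2 level of each member probe on the 4 arrays, relative to the 75th percentile of the array, with 1 point per array and no error bars since each group has 1 array. *Xbp1* was higher in males and *Chac1* in females whatever the size group, *Trib3* was low on CM alone, and the flagged *Sesn2* spot was high on MF. Levels of different probes cannot be set against each other.

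In MF vs CF, 1 of the 9 members compared passed 1.5-fold, *Dnajb9*, which was lower, beside 40.9% of the 25538 genes compared (19.9% higher and 21.1% lower). In MM vs CM, 4 of 9 passed it, beside 40.8% of 26315 genes (17.7% higher and 23.1% lower). Those higher were *Xbp1*, *Herpud1* and *Trib3*, and *Asns* was lower. The member share lay below the share of all genes in females and near it in males. Of the 10351 genes with a mean level above 0, 37.6% passed the limit in females and 26.5% in males, and of the 8 members with such a level 1 did in females and 4 in males. The median log2 difference of the members was -0.18 in females, against -0.11 for all genes, and 0.13 in males, against -0.07. No member passed 1.5-fold in both genders, the same way (6.98% of the genes compared in both) or opposite ways (9.85%).

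Over 8 ways of processing, the main one among them, these 4 male differences kept their sign. Keeping flagged spots or averaging over probes could not change these differences, since each gene has a single unflagged probe. That of *Trib3* lay between 0.90 and 1.68 on the log2 scale and stayed past 1.5-fold in each. That of *Xbp1* lay between 0.59 and 1.42 and that of *Herpud1* between 0.41 and 1.73, the lowest under normexp background correction. That of *Asns* lay between -0.69 and -0.07, the last without scaling between arrays. The female *Dnajb9* difference lay between -0.84 and -0.23. The signs of *Hspa5*, *Ddit3* and *Atf4* turned in some settings in both genders, those of *Xbp1*, *Herpud1*, *Trib3* and *Asns* in females and that of *Dnajb9* in males.

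**Figure D2:**
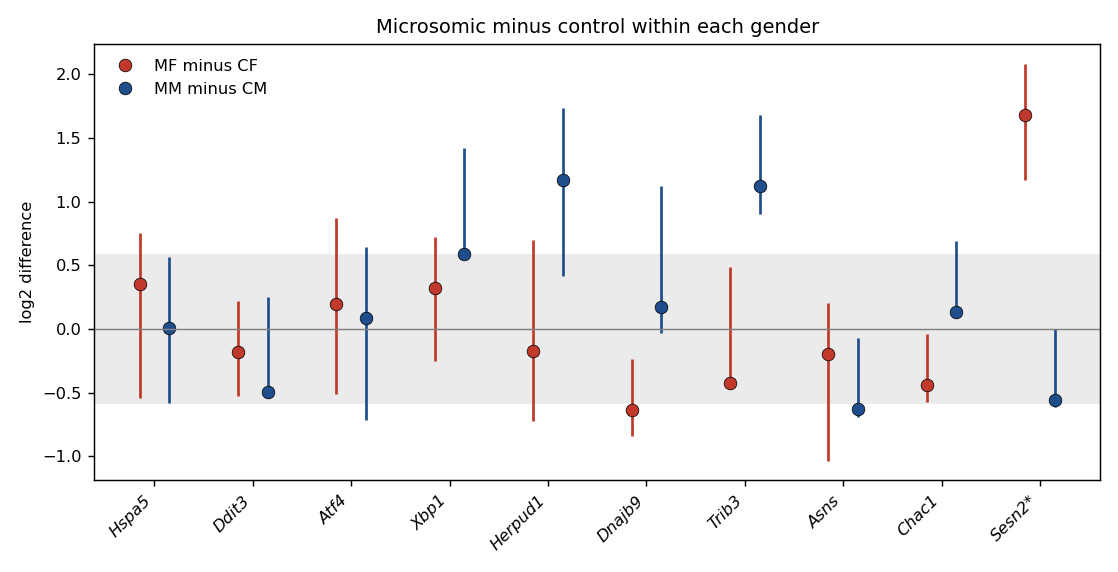
Log2 difference of M over C for each member in females (MF over CF) and in males (MM over CM), with the grey band marking differences under 1.5-fold, vertical lines the range over 8 ways of processing, and an asterisk the flagged *Sesn2* spot. Among the unflagged members, *Trib3*, *Herpud1* and *Xbp1* lay above the limit in males, *Asns* below it in males and *Dnajb9* below it in females.

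With the genders taken as replicates of M and C, limma was fitted to all 4 arrays with gender as a term and 1 residual degree of freedom. After Benjamini-Hochberg adjustment it called 0 of 19303 genes, and 853 (4.42%) had an unadjusted p under 0.05, none of them a member. The members had an adjusted p of 0.995 each. The largest M to C differences were 0.50 (SE 0.48) for *Herpud1*, 0.46 (SE 0.41) for *Xbp1* and -0.41 (SE 0.42) for *Asns*, and the other 6 lay between -0.34 and 0.35. At this number of arrays, no member difference stood out from its standard error. In simulated data the fit recovered 0 of 200 genes with an added log2 difference of 2, and 194 of 200 with 4. It could therefore not have called differences of the size seen in the members, and the absence of calls does not bear on them. At the threshold of the methods limma gave 163 genes (0.844%), none of them a member.

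The gender comparisons were added after the data had been seen, and they share their arrays with those of M and C. In CM vs CF, 5 of 9 members passed 1.5-fold, beside 46.3% of genes (26.6% higher and 19.7% lower in males), with *Xbp1* and *Asns* higher and *Atf4*, *Trib3* and *Chac1* lower in males. In MM vs MF, 7 of 9 passed it, beside 49.5% of genes (28.9% higher and 20.5% lower in males), with *Xbp1*, *Herpud1* and *Dnajb9* higher and *Hspa5*, *Ddit3*, *Atf4* and *Chac1* lower in males. *Xbp1* was higher in males by 1.08 among controls and 1.35 among microsomic mice, *Atf4* lower by -0.97 and -1.08, and *Chac1* lower by -1.93 and -1.36. These 3 of 9 passed the limit the same way in both, beside 15.0% of genes, but the dimmer *Atf4* probe read 0.55 among controls and -0.65 among microsomic mice. None of the 9, that is 0, the limit opposite ways, beside 8.12%. In limma 0 of 19303 genes were called for gender, and 1807 (9.36%) had an unadjusted p under 0.05, among them these 3 members. Their adjusted p in limma was 0.346 for *Chac1*, 0.481 for *Xbp1* and 0.520 for *Atf4*. Over the ways of processing *Xbp1* and *Chac1* stayed past 1.5-fold in both comparisons, with smallest differences of 0.64 and -1.25. *Atf4* fell short of it in CM vs CF with normexp (-0.14), with the detrending undone (-0.16) and with the mean over its probes (-0.21), and in MM vs MF with quantile normalization (-0.46). Gender lay with the row of the slide, and the part of the row was not tested.

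The wider pathway was followed in 7 lists of 152 other genes. Of the 147 compared in females 60 passed 1.5-fold (40.8%), 33 higher and 27 lower, beside 40.9% of all genes. Of the 146 compared in males 37 did (25.3%), 23 higher and 14 lower, beside 40.8% of all genes. Of the genes with a mean level above 0, 37.6% passed the limit in females and 26.5% in males. For the counts of each pathway and marker list below, the shares of all genes were 19.9% higher and 21.1% lower in females. In males they were 17.7% higher and 23.1% lower. Among genes with a mean level above 0 they were 20.9% higher and 16.6% lower in females, and 14.9% and 11.6% in males. Of the 146 genes of all lists compared in both genders, 6 were higher and 2 lower in both, and 8 went opposite ways. Among all genes 6.98% went the same way in both and 9.85% opposite ways. Over 8 ways of processing the median kept its sign in females for the integrated stress response regulators and for amino acid synthesis and transport. The first of these lists also holds target genes. In males the median kept its sign for the ER chaperones, degradation and translocation. It changed sign in the other cases.

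The chaperones and disulfide enzymes of the ER, to which *Hspa5* and *Dnajb9* are tied, were mixed in females, with 5 of 27 higher, 8 lower and a median of 0.07. In males 6 were higher and 2 lower, beside 17.7% and 23.1% of all genes. A difference above 0 was found for 22 of 27 (median 0.44, against -0.07 for all genes). It was found for 46.4% of all genes, and for 54% of those with a mean level above 0. The number above 0 in males ranged from 15 to 25 over the ways of processing, and the lowest median was 0.15, under normexp. *Ero1l*, an oxidase that recharges protein disulfide isomerases, was higher in M in both genders, by 0.98 and 1.72, and *Txndc11* was lower in both, by -0.70 and -0.59. The isomerase *P4hb* was the highest of the list in females (1.31, against 0.49 in males), *Manf*, a secreted stress protein, the lowest (-0.89, against 0.49), and the prolyl isomerase *Ppib* the lowest in males (-0.63, against 0.52 in females).

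The degradation genes that work beside *Herpud1* had 2 higher and 3 lower of 20 in females (median -0.21) and 4 higher and 1 lower in males (median 0.21). In males 18 of 20 were above 0 (16 to 19 over the ways of processing), beside 46.4% of all genes. *Ube2j1*, a ubiquitin-conjugating enzyme of the ER, was the highest in males, at 1.11, and -0.40 in females. *Sel1l*, the partner of the ligase Syvn1, was the lowest in males at -0.60 and read -0.46 in females. *Derl2* was the highest in females (0.85, against 0.47 in males) and *Ufd1l* the lowest (-0.83, against 0.20). Other probes of *Ube2j1*, *Derl2* and *Ufd1l* read down to -0.14, -0.21 and -0.35 in males.

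For translocation into the ER and export from it, 5 of 23 genes were higher and 3 lower in females (median 0.07), and 4 were higher and 0 lower in males (median 0.32). In males 20 of 23 were above 0 (14 to 23 over the ways of processing), beside 46.4% of all genes. *Spcs2*, a subunit of the signal peptidase, was higher in M in both genders at its brighter probe, by 0.66 in females and by more than 1.5-fold in males as well. Its other probe went the opposite way, at -0.23 in females and -0.59 in males. *Spcs1* (1.20 in females and 0.33 in males) and *Sec61a1*, the channel subunit (1.08 and -0.55), were high in females, and *Srp54a*, of the signal recognition particle, was low there (-1.28, against 0.07), while its other probe read 0.66 and -1.31. The stress sensors had 1 higher and 3 lower of 21 in females (median -0.21) and 3 higher and 0 lower in males (median -0.05). *Eif2ak3*, the kinase that phosphorylates eIF2 under ER stress, was lowest in females at -1.31 and read -0.29 in males. *Wfs1* was the highest in females (0.60, against 0.23), *Nfe2l2* the highest in males (0.65, against -0.52 in females) and *Creb3l1* the lowest in males (-0.32, against 0.08).

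Of 18 genes of amino acid synthesis and transport, 9 were higher and 4 lower in MF than in CF, beside 19.9% and 21.1% of all genes (median 0.60, and 0.13 at the lowest, under normexp), while 0 were higher and 4 lower in MM than in CM (median -0.11). *Psat1*, of serine synthesis, was the highest in females at 2.37 (log2 level 6.62 on MF against 4.25 on CF, though its probes differed in size) and read -0.11 in males. Its pathway neighbours, chosen after their values were seen, read 1.73 and -0.07 for *Phgdh* and 1.11 and -1.15 for *Psph* (other probes 0.95 and -0.91, and 0.25 and 0.41), and *Mthfd2*, of mitochondrial folate metabolism, read 1.85 and 0.22. In the same pair of arrays *Asns* differed by -0.19 and *Trib3* by -0.42. *Got1*, the cytosolic aspartate aminotransferase, was lower in M in both genders, by -1.83 and -1.53, and *Slc6a9*, a glycine transporter, was the highest in males (0.51, against 0.60 in females). Among 18 tRNA synthetases 1 was higher and 4 lower in females (median -0.14) and 2 higher and 2 lower in males (median -0.01). The extremes were *Cars* (0.79) and *Yars* (-1.01) in females, and *Eprs* (1.56) and *Qars* (-0.86) in males.

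Of the list of integrated stress response regulators, which also holds target genes, 10 of 20 were higher and 2 lower in females. Its median there was 0.51, and 0.27 to 0.92 over the ways of processing. In males 4 of 19 were higher and 5 lower (median 0.06). The genes past 1.5-fold higher in M in both genders were *Atf5*, a factor related to Atf4 (1.58 and 0.94), *Trib1*, a pseudokinase related to Trib3 (1.61 and 0.90, with another probe at 0.27 in males), *Vldlr*, a lipoprotein receptor (1.28 and 1.02, although another of its probes read -1.13 in females), and *Tnfrsf10b*, a death receptor (0.74 and at least 0.95). With the detrending undone *Atf5* read 0.26 in males and *Tnfrsf10b* 0.51 in females, both under 1.5-fold. Of the 8 genes past the limit the same way in both genders across the lists, 5 stayed past it there (*Ero1l*, *Got1*, *Spcs2*, *Trib1* and *Vldlr*), and of the 31 genes named by rule 3 turned sign in males (*Cars*, *Manf* and *Sel1l*) and 0 in females. These values are of the representative probes, and other probes of *Spcs2* in both genders and of *Vldlr* in females read below 0. *Atf3*, an early stress factor, was 2.71 in females and -0.64 in males. *Gdf15*, a hormone secreted under stress, was the lowest in males at -3.75 and read 0.41 in females, and *Sesn1*, related to Sesn2, was the lowest in females (-0.81, against 0.13).

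**Figure D3:**
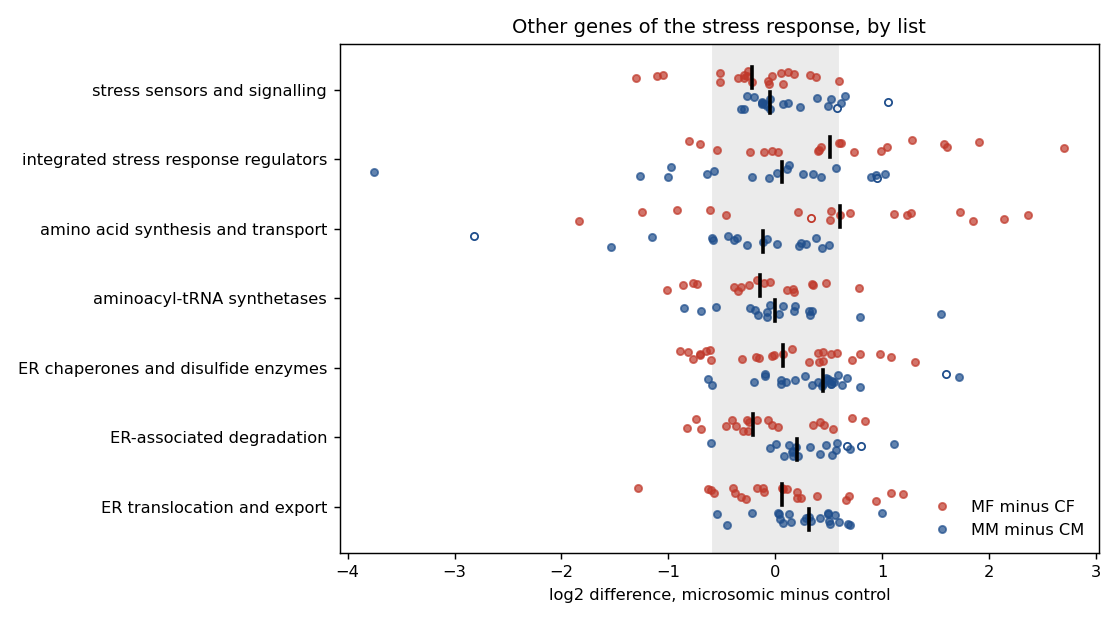
Log2 difference of M over C for each gene of the 7 pathway lists, in females (MF over CF) and in males (MM over CM), 1 point per gene, with a bar at the median of each list, open points for lower bounds and a grey band for differences under 1.5-fold. The list of integrated stress response regulators, which also holds target genes, had a median of 0.51 in females. Amino acid synthesis and transport had a median of 0.60 in females, and the ER chaperones had a median of 0.44 in males.

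Markers of other cells moved on some of these arrays. In MF vs CF, 7 of 8 intestinal markers were higher and 0 lower, and in MM vs CM 1 of 6 was higher and 3 lower (median -0.54). Of these, *Cdx1*, *Cdx2* and *Cdh17* were not well above background on CF, and *Fabp2* was higher in both genders, by 3.15 and 2.38. This gene made up 61.9 of the summed level of 75.9 on MF and 31.5 of 32.0 on MM. Of 11 granulocyte and macrophage markers 10 were higher in MF. Their summed level was 2047 on MF, 960 on CF, 1003 on MM and 1301 on CM. In females 7 of 8 heart markers were lower, 5 of them in both genders (*Actc1*, *Myh6*, *Myh7*, *Myl4* and *Nppa*). *Myh6* was not well above background on MF and MM, so its differences are lower bounds, and another of its probes read 0.20 in males. In MM vs CM, 9 of 11 markers of the exocrine pancreas, a tissue rich in ER, were lower and 1 higher. In MF vs CF 6 of 11 were higher and 0 lower, and 6 went opposite ways in the genders. Their summed level was 5.51 on MF, 3.41 on CF, 2.66 on MM and 4.51 on CM, and *Pnlip* was not well above background on any array. *Cela3b*, *Prss1* and *Try4*, among those higher on MF, were not well above background on CF. *Prss1*, *Try4* and *Ptf1a*, among those lower on MM, were not well above background on MM. *Cela1*, the brightest of the list on each array, differed by 0.07 in females and -0.72 in males. Of the hepatocyte markers 6 of 10 were lower and 1 higher in males (median -0.64), with 1 higher and 0 lower in females. Erythroid markers gave 2 higher and 3 lower of 10 in females and 0 and 2 in males, with *Hbb-b1* lower in both (-0.68 and -0.86). Markers of B cells gave 3 higher of 7 and 2 lower of 8, and endothelial markers 2 lower of 8 and 0. The part of these cells in the member and list differences was not tested, and in whole liver fewer cells of a type and less RNA per cell cannot be told apart.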

How the data were processed

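Liver RNA, labelled with Cy3, was read on Agilent SurePrint G3 mouse arrays, 1 for each of 4 groups taken from the labels. Scans were quantified by the authors in Agilent Feature Extraction 10.7.3.1. The deposited processed signal is a linear intensity after background subtraction and division by a detrending ratio, which the authors deposited for each spot. Their value table equalled this signal in all 62976 spots. Signal over background and the number of arrays limit the precision.

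Arrays were compared on the log2 scale after subtracting the 75th percentile of each over its non-control spots. Flagged outlier spots (1754, on any array) were dropped on all, and the brightest remaining probe stood for its gene. A gene was compared when well above background on at least 1 of both arrays, and counted when it differed by more than 1.5-fold. Against an array where it was not, the difference is a lower bound, taken over the higher of its own signal there and the lowest signal well above background. Genes were fitted with limma 3.58.1 (R 4.3.3) where well above background on all 4 arrays, with Benjamini-Hochberg adjustment, and the fit was tested on simulated data. Python 3.11.15 and pandas 2.3.3 were used otherwise. The alternatives tried were median centring, quantile normalization, no scaling, normexp (offset 50) with quantile normalization, flagged spots kept, the mean over probes, other filters on dim probes, a 2-fold limit, and for limma no gender term, an intensity trend and the methods' threshold (p below 0.01 before adjustment, and 1.5-fold). Undoing the detrending was added after seeing the data.

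Named genes were all members, and of each of 7 pathway lists (stress sensors, integrated stress response regulators, amino acid synthesis and transport, tRNA synthetases, ER chaperones and disulfide enzymes, ER-associated degradation, ER translocation and export) up to 4 genes past 1.5-fold the same way in both genders and the highest and lowest of each comparison. Of 8 marker lists (hepatocyte, erythroid, granulocyte and macrophage, exocrine pancreas, B cell and plasma cell, liver endothelium, intestinal epithelium, heart muscle) the genes named are those past the limit in both genders the same way or not well above background. *Phgdh*, *Psph*, *Mthfd2* and *Cela1* were named outside these rules, after their values were seen. The members and lists were chosen with earlier results of these data known. Positions of probes come from the annotation in the files (mm9), and promoters from RefSeq (GRCm38.p6).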

Additional observations from a re-analysis of the deposited data

Results flagged for a closer look

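*Sesn2* was 3.21-fold higher on MF than on CF at its only probe, a spot left out of the main counts because of its non-uniformity flag on MF. Over 8 ways of processing the log2 difference lay between 1.17 and 2.08. All 8 read the same flagged spot, so the kept sign does not bear on whether that spot is sound. *Atf3* went opposite ways in the genders, with a log2 difference of 2.71 for MF over CF and of -0.64 for MM over CM. Whether these differ was not tested, since each rests on 1 array per group.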

How the results depend on the processing

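The number of members past 1.5-fold in MF vs CF was 1 and became 0 with centring on the median, 3 with quantile normalization, 3 without scaling, 2 with normexp, 3 with the detrending undone, 2 with flagged spots kept, 0 with the mean over probes and 0 at 2-fold. In MM vs CM it was 4, between 3 and 6 in the other settings, and 2 at 2-fold. Between the genders it was 5 in CM vs CF, with 3 at 2-fold. In MM vs MF it was 7 and became 4 with the detrending undone and 4 at 2-fold. The other pathway genes past 1.5-fold were 60 in MF vs CF and 24 at 2-fold. In MM vs CM they were 37, and 63 with centring on the median (55 higher), 98 without scaling (93 higher), 68 with normexp (49 higher), 75 with the detrending undone (55 higher) and 11 at 2-fold. limma called 0 genes for M vs C, 10 without scaling, 17 with the detrending undone and 163 at the threshold of the methods, and 0 members in every setting run. The difference of *Asns* in CM vs CF turned to -0.14 with normexp and to -0.14 with the detrending undone, and that of *Hspa5* in MM vs MF to 0.082 with quantile normalization and to 0.60 with normexp. Of 70 single member differences per comparison, 47 kept their size within the spot SD in MF vs CF, 46 in MM vs CM, 54 in MM vs MF and 41 in CM vs CF. The flagged *Sesn2* is among them. Part of these counts was fixed beforehand, since keeping flagged spots changed no member value. The mean over probes changed only *Atf4* and *Dnajb9*, and centring on the median shifted all members of a comparison alike. Of all genes called, 48.5% were higher in MF vs CF, 57.1% with centring on the median and 79.6% without scaling, and 43.4% in MM vs CM, 61.0% and 78.4% in the same settings. Without scaling the median of all genes was 0.29 in MF vs CF and 0.49 in MM vs CM, and with centring on the median it was 0.17 in MM vs CM. The cause of these changes was not tested. No paired analysis was possible because each group has 1 array and the replicate numbers name no shared animal or litter.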
